A study of Mus musculus with 20 samples.

Results

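The 8 transcripts described here, Col1a1, Mgp, Tcf21, Inmt, Adh1, Dpep1, Coch and Serpinf1, are a set called stromal here that was detected in RNA-seq libraries labelled as brain macrophages. They are 8 of the 24421 genes in the count files, and they were chosen by name, from their level in the choroid plexus libraries, from the difference between choroid plexus replicate 4 and replicates 1 to 3, and from the difference between choroid plexus and dura. Those 3 contrasts are therefore a description with no test. All 8 genes passed the filter on low counts. Serpinf1 was also present in every microglia library, so for that gene the name stromal is only a label of the set.

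The study sequenced 20 libraries of C57BL/6JRj mice, 4 from each of 5 populations: macrophages of the dura mater with high surface MHC II (dura MHC II-high), dura macrophages with low MHC II (dura MHC II-low), choroid plexus macrophages, microglia of the brain, and peritoneal macrophages from the peritoneal cavity. The labels name no treatment or genotype, no age, no number of animals per library and no sorting gates. The sample titles of the libraries called dura MHC II-low here read MHCII-int. The microglia replicates carry the numbers 1, 3, 4 and 5. Nothing in the labels says that replicates came from separate animals, so p-values measure the spread between these libraries, which may be technical.

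The choroid plexus is a frond of tissue in the brain ventricles in which a secretory epithelium covers a core of fibroblasts, capillaries and macrophages, and the dura is a collagen-rich outer membrane of the brain with fibroblasts of its own. Fibroblasts lay down fibrillar collagen and the proteins that decorate it, and fibroblasts of different organs use different transcription factors and metabolic enzymes. Among the 8 genes, Col1a1 encodes a chain of type I collagen, Mgp the matrix Gla protein that restrains calcification, and Coch the matrix protein cochlin. Tcf21 encodes a basic helix-loop-helix transcription factor of mesenchymal cells. Inmt encodes a methyltransferase of indoleamines, Adh1 an alcohol dehydrogenase that also oxidises retinol, and Dpep1 a membrane dipeptidase that cleaves dipeptides and leukotriene D4. Serpinf1 encodes the secreted serpin PEDF. In bulk RNA, fewer cells of a type and less RNA per cell cannot be told apart.

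Promoters are shown for Inmt, Adh1, Dpep1, Tcf21 and Coch, which ranked the 4 choroid plexus libraries in the same order and were low in dura. The set of RefSeq (GRCm38.p6) promoters used here held 6 of the 8 genes, all but Col1a1 and Mgp. Each promoter runs from 250 bases before to 50 bases after the annotated start. The 6 letters CAGCTG, a palindrome that reads the same on both strands and the core E-box bound by many basic helix-loop-helix factors, were searched after the sequences had been seen. The capitals mark them, where present, in the sequences of Inmt (chr6:55174941-55175240, minus strand), Adh1 (chr3:138277335-138277634, plus strand), Dpep1 (chr8:123185985-123186284, plus strand), Tcf21 (chr10:22820094-22820393, minus strand) and Coch (chr12:51593091-51593390, plus strand), each written 5′ to 3′.
Inmt: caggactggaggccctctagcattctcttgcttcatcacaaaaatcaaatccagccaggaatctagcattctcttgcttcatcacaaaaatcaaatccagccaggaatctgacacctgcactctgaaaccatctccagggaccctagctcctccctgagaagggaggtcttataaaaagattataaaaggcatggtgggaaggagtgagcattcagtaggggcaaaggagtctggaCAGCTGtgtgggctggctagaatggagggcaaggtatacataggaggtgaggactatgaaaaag
Adh1: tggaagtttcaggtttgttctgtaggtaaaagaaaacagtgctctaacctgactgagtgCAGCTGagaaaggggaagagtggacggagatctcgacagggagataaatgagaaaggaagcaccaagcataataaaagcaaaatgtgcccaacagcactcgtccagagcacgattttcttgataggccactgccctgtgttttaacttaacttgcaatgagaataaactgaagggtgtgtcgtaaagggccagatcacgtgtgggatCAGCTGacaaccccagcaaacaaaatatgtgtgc
Dpep1: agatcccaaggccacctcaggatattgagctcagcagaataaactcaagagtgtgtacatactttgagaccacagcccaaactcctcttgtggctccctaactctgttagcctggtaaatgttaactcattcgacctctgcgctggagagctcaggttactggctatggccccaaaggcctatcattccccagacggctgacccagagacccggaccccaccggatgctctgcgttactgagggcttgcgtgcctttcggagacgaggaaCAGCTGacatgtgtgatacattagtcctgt
Tcf21: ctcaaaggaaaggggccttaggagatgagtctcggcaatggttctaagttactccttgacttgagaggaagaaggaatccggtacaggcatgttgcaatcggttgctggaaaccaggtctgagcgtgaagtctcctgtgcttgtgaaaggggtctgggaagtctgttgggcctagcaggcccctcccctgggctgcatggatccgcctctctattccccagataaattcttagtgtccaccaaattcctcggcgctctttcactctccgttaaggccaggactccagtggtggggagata
Coch: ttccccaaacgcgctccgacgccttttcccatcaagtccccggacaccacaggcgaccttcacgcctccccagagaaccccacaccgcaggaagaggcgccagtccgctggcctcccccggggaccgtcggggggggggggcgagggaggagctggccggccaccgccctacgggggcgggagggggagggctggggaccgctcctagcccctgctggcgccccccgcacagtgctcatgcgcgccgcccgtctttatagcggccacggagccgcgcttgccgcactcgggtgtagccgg
The match starts at base 237 of the Inmt window, at bases 60 and 267 of the Adh1 window and at base 271 of the Dpep1 window, counted from 1 at the 5′ end. The windows of Tcf21 and Coch, and that of Serpinf1, do not hold these letters. Over all 32851 promoters of the same length, 16.3% hold them, and a match describes a window without showing a site.

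In the GENCODE M21 annotation (build GRCm38, the same assembly as the mm10 build in the submitters' processing notes), Col1a1 lies on chromosome 11 from 94936224 to 94953042, Mgp on chromosome 6 from 136872435 to 136875823, Tcf21 on chromosome 10 from 22817281 to 22820174 and Inmt on chromosome 6 from 55170626 to 55175043. Adh1 lies on chromosome 3 from 138260991 to 138290698, Dpep1 on chromosome 8 from 123186242 to 123201812, Coch on chromosome 12 from 51593341 to 51605771 and Serpinf1 on chromosome 11 from 75409769 to 75422701. All are protein-coding. Only Adh1 shares exon bases with another gene, 6.09% of them with Gm16559.

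Gene counts per library ran from 13383274 to 32611875, and from 13383274 to 16052955 in choroid plexus. Levels below are counts per 1000000 counts of the library (CPM), scaled by the trimmed mean of M-values. The 10 macrophage markers summed to between 14765 and 30208 CPM in the brain and dura libraries and to between 7240 and 10026 CPM in peritoneal macrophages, with none at 0 in any library. A pair of libraries stood apart from their populations in the genes described here. Choroid plexus 4 had the highest level of all 8 genes among the choroid plexus libraries, as did 26.8% of all genes. Microglia 3 carried both stromal transcripts and 21505 CPM of the 15 choroid plexus epithelial markers, against 73.2 to 747 CPM in the other microglia libraries. Each test that uses microglia is therefore given with and without microglia 3.

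Across the 20 libraries the 8 transcripts fell into 3 patterns. Col1a1 and Mgp were present in dura and in choroid plexus alike. Tcf21, Inmt, Adh1, Dpep1 and Coch were at least an order of magnitude lower in dura than in choroid plexus by population mean. Serpinf1 was present at 30.1 CPM or more in every choroid plexus, dura and microglia library. All 8 were at 0 or 1 count in every peritoneal library.

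**Figure D1:**
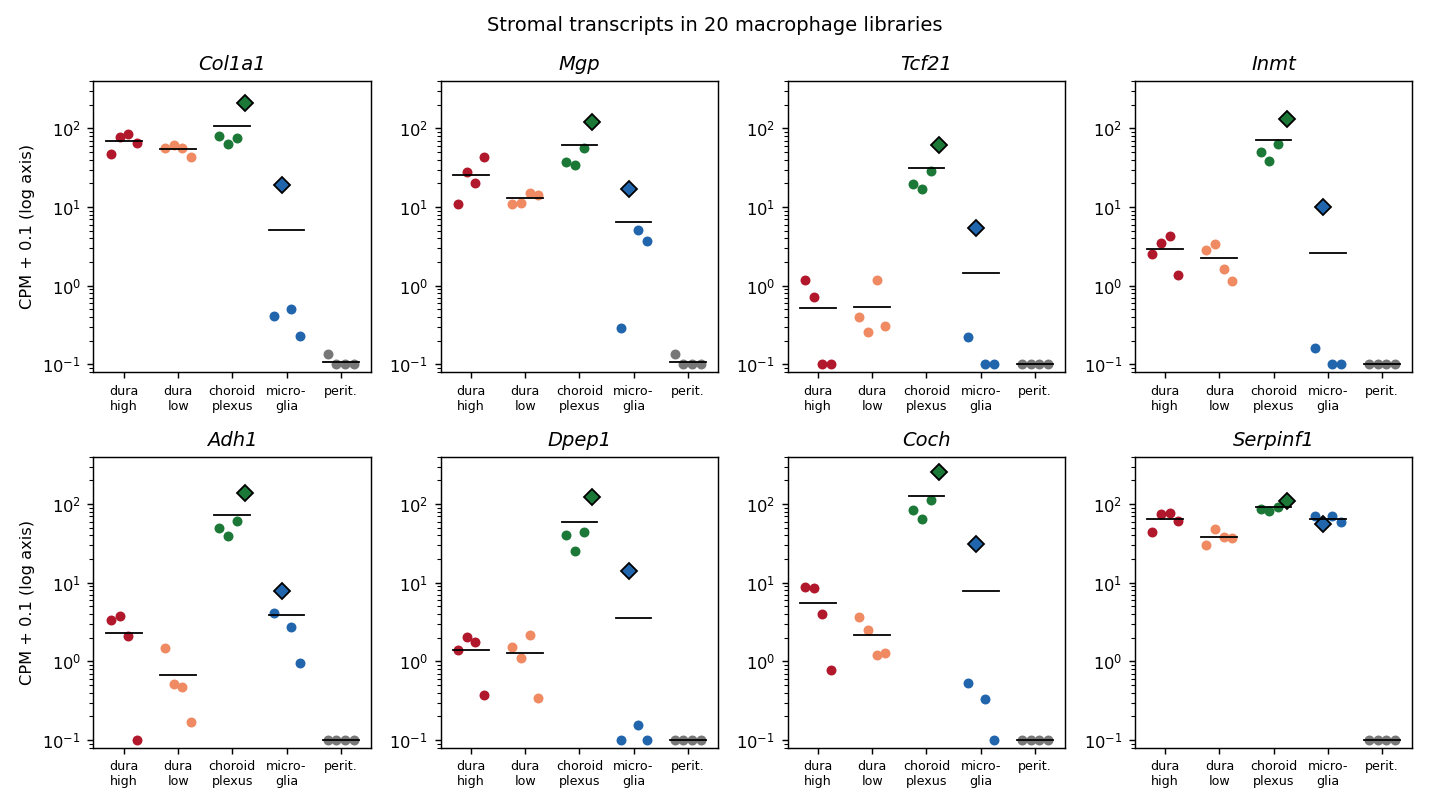
CPM + 0.1 on a log axis for each transcript in each of the 20 libraries (points) with the population mean (line), in dura MHC II-high, dura MHC II-low, choroid plexus, microglia and peritoneal macrophages. Diamonds are choroid plexus 4, the highest point of its population in all 8 panels, and microglia 3, the highest microglia point in 7 panels and the lowest in the panel of Serpinf1.

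Col1a1 stood at 81.1, 62.7, 74.6 and 207 CPM in choroid plexus 1 to 4. It was at 47.3, 77.7, 85.8 and 65.4 CPM in dura MHC II-high 1 to 4. Dura MHC II-low 1 to 4 held 56.6, 60.7, 56.4 and 42.9 CPM. Choroid plexus 1 to 3 thus lay within the range of the dura libraries, and only choroid plexus 4 was above every one of them by more than 2-fold. The microglia libraries 1, 4 and 5 held 0.313, 0.405 and 0.132 CPM and microglia 3 held 19.2 CPM, which lies below every choroid plexus and dura library.

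Mgp, whose protein binds to the collagen-bearing matrix, stood at 37.1, 34.3, 56.0 and 121 CPM in choroid plexus 1 to 4. It varied more in dura MHC II-high, at 10.7, 28.1, 19.96 and 43.1 CPM, than in dura MHC II-low, at 10.9, 11.3, 14.9 and 14.0 CPM. Choroid plexus and dura MHC II-high overlapped, because dura MHC II-high 4 exceeded choroid plexus 1 and 2. Microglia 1, 3, 4 and 5 held 0.188, 17.0, 4.98 and 3.63 CPM, so that Mgp, unlike Col1a1, was well above 3 counts in 3 of the 4 microglia libraries.

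Tcf21, the only transcription factor of the set, stood at 19.7, 17.0, 28.5 and 60.9 CPM in choroid plexus 1 to 4. In dura MHC II-high it was at 33 and 14 counts in replicates 1 and 2 and at 0 counts in replicates 3 and 4, where the limit that a count of 0 allows is 0.130 and 0.118 CPM. Dura MHC II-low held 8, 5, 29 and 6 counts. No dura library reached 1.1 CPM, and the choroid plexus range lay above that of MHC II-high, as for 18.1% of all genes. Outside choroid plexus the highest level was 5.31 CPM, in microglia 3.

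The enzymes Inmt and Adh1 had almost the same CPM as each other in the choroid plexus libraries. Inmt was at 49.9, 37.9, 63.6 and 132 CPM in choroid plexus 1 to 4. Adh1 was at 49.8, 38.9, 61.4 and 139.6 CPM in the same libraries. In dura they parted: Inmt held 1.26 to 4.18 CPM in MHC II-high and 1.06 to 3.31 CPM in MHC II-low, and Adh1 held 0 to 3.66 CPM in MHC II-high and 0.0705 to 1.40 CPM in MHC II-low. Adh1 was also present in microglia 1, 4 and 5, at 4.01, 2.66 and 0.859 CPM, where Inmt had 1, 0 and 0 counts.

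Dpep1 stood at 40.4, 25.5, 43.9 and 124 CPM in choroid plexus 1 to 4. It was at 0.275 to 1.96 CPM in dura MHC II-high and at 0.247 to 2.07 CPM in dura MHC II-low. Microglia 1, 4 and 5 held 0, 1 and 0 counts of it and microglia 3 held 226, so this dipeptidase was at or under 3 counts in every microglia library but 1.

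Coch had the highest CPM of the 8 genes in choroid plexus 4, at 252, after 83.8, 64.3 and 114 CPM in choroid plexus 1 to 3. In dura MHC II-high it ranged from 0.669 CPM in replicate 4 to 8.64 CPM in replicate 1. Dura MHC II-low held 1.09 to 3.52 CPM. The order of the dura MHC II-high libraries for Coch, Adh1 and Tcf21 had replicates 1 and 2 above replicates 3 and 4, whereas Mgp was highest in replicate 4.

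Serpinf1 was the flattest of the set. It stood at 86.6, 80.7, 91.6 and 108 CPM in choroid plexus 1 to 4. Dura MHC II-high held 44.5, 75.1, 77.0 and 61.0 CPM and dura MHC II-low held 30.1, 48.2, 37.5 and 36.5 CPM. In microglia 1, 3, 4 and 5 it was at 70.8, 56.3, 70.0 and 59.7 CPM, with microglia 3 the lowest. Only for Serpinf1, Adh1 and Tcf21 did the ranges of microglia 1, 4 and 5 and of dura MHC II-high overlap, and Serpinf1 was the only gene for which microglia 3 was not above the other microglia. Serpinf1 was thus present in microglia 1, 4 and 5, where Col1a1 was at 0.132 to 0.405 CPM. Which cells it came from in any of the populations was not tested.

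Per kilobase of exon, Mgp, a short transcript, led in choroid plexus, with a mean of 52.2 CPM per kilobase over the 4 libraries. Inmt and Coch followed at 44.2 and 42.9, then Serpinf1 at 38.9, Adh1 at 32.4, Dpep1 at 23.5, Col1a1 at 16.2 and Tcf21 at 13.4 CPM per kilobase. In dura MHC II-high the order was different, with Serpinf1 at 27.3 and Mgp at 21.5 CPM per kilobase ahead of Col1a1 at 10.5, and the other 5 genes between 0.181 and 1.81.

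The comparison of choroid plexus 4 with choroid plexus 1 to 3 asks how far a single library departs from its population. Choroid plexus 4 held 2.85 times the mean CPM of Col1a1 in replicates 1 to 3, with 3261 counts against 1097, 951 and 1102. The count ratio had a 95% Clopper-Pearson interval of 2.72 to 3.003, which covers counting error only, as PCR duplicates are not independent molecules. The fold was 2.84 for Mgp, 2.80 for Tcf21, 2.61 for Inmt, 2.79 for Adh1 and 2.89 for Coch. Dpep1 was highest at 3.38, and Serpinf1 lowest at 1.25. On the log2(CPM + 0.5) scale 7 of the 8 genes were past 2-fold, where 395 of 13960 genes (2.83%) were. Since this contrast chose the genes, nothing is read from the count. With 1 library on one side the difference has no replicate check. It can be set beside the spread of replicates 1 to 3: the log2 ratio of Col1a1 was 1.51, with an SD of 0.19 (n = 3) among replicates 1 to 3, and that of Dpep1 was 1.76 with an SD of 0.42.

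Other stromal genes went the same way in choroid plexus 4, and these lists, too, were drawn up with earlier results of these libraries known. Of 28 genes of fibrillar and other stromal matrix, 17 were past 2-fold higher and 1, Fbln2, was past 2-fold lower on the log2(CPM + 0.5) scale, which holds for all list counts and medians here; without the pseudocount they were 17 and 2. The median log2 ratio was 1.35, against -0.02 over all genes tested. Among the most abundant, Col1a2, the partner chain of Col1a1, was at 179.9 CPM against 50.8 to 83.8 CPM. The collagen-binding proteoglycan decorin (Dcn) was at 215 against 60.5 to 104 CPM. Lumican (Lum), of the same family, was at 188 against 57.6 to 72.0 CPM. Col14a1 did not share the difference, at 215 CPM against 212 to 286 CPM.

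Of 20 tested mesenchymal receptors and transcription factors, 9 were past 2-fold higher and none past 2-fold lower on the same scale, and 11 and 2 without the pseudocount. The receptors for platelet-derived growth factor were among them: Pdgfrb stood at 113 CPM against 28.8 to 44.6 CPM and Pdgfra at 59.2 against 17.7 to 24.8 CPM. The forkhead factors Foxc1, at 38.2 against 10.7 to 17.5 CPM, and Foxd1, at 27.6 against 10.4 to 15.8 CPM, went with them. In the list of 13 genes that fold and process collagen, 4 were past 2-fold higher, namely Serpinh1, Plod2, Fkbp10 and Adamts2. The most abundant members of that list, which many cell types express, were close to the other libraries: P4hb was at 628 CPM against 594 to 617 CPM and P4ha1 at 159 against 151 to 166 CPM. None of the 12 tested genes of retinoid and alcohol metabolism was past 2-fold on this scale (1 higher and 2 lower without the pseudocount), with Aldh2 at 352 against 347 to 356 CPM, although Adh1 itself was.

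Markers of other cell types did not as a whole share the difference of choroid plexus 4. All 15 epithelial markers were below each of replicates 1 to 3 (27.7% of all genes were), with a median log2 ratio of -0.69 and a sum of 4181 CPM against 5190 to 7901 CPM. Transthyretin (Ttr), the main secreted protein of this epithelium, was at 1936 CPM against 2079 to 3178 CPM. The endothelial list summed to 115 CPM against 149.7 to 189.5 CPM, with Kdr, Esam and Podxl past 2-fold lower (without the pseudocount 1 gene, Cldn5 at 1.02 CPM, was past 2-fold higher). Emcn went the other way, at 35.7 against 18.6 to 23.2 CPM. The mural list summed to 52.7 CPM against 23.8 to 47.2 CPM. Des was past 2-fold higher, at 19.3 against 6.46 to 10.3 CPM. Acta2 was past 2-fold lower (3 lower without the pseudocount), at 0.191 CPM, equal to 3 counts, against 0.264 to 1.55 CPM. Abcc9 was at 19.0 against 6.79 to 13.4 CPM, and Rgs5 and Kcnj8 lay within the range of replicates 1 to 3. In the leptomeningeal and arachnoid list 3 of 12 genes were higher (Gjb2, Gjb6 and Nnat) and 1, Slc6a20a, lower (3 lower without the pseudocount). The macrophage markers had a median log2 ratio of -0.07. Gene counts in choroid plexus 4, 15389573, lay within the range of the other choroid plexus libraries.

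**Figure D2:**
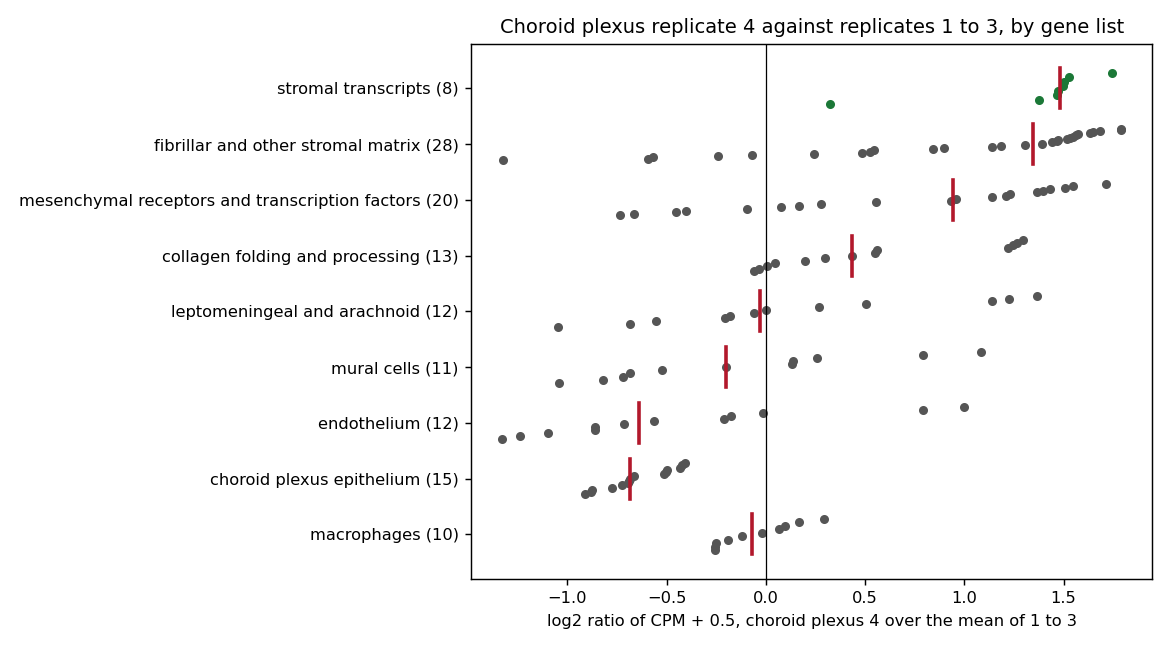
Log2 ratio of CPM + 0.5 in choroid plexus 4 to the mean of choroid plexus 1 to 3 (x axis) for each tested gene of 9 lists (rows, number of genes in brackets), with the median as a red bar. The 8 stromal transcripts have a median of 1.48 and stromal matrix 1.35, whereas epithelium lies below 0 throughout with a median of -0.69.

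A second way to compare libraries is to count each transcript per 100 counts of Col1a1 in the same library. This would remove the overall amount of stromal RNA if both transcripts came from the same cells, which was not tested. In choroid plexus 1 to 3 pooled, Mgp had 58.7 counts per 100 of Col1a1, and in choroid plexus 4 it had 58.2. Tcf21 had 30.0 and 29.4, Adh1 68.9 and 67.4, and Coch 120.2 and 121.7. For these 4 genes and for Inmt the 95% counting intervals of the pool and of replicate 4 overlapped. Replicates 1 to 3 differed among themselves by more than that, for example from 24.3 to 38.2 for Tcf21 and from 103 to 152 for Coch. Inmt was at 69.5 in the pool and at 63.5 in replicate 4, inside the range of 60.5 to 85.2 over replicates 1 to 3. Dpep1 was at 50.2 and 59.7, just above the highest of replicates 1 to 3, 58.9. Serpinf1 was the exception, with 119 counts per 100 of Col1a1 in the pool, 107 to 129 in the single libraries and 52.2 in replicate 4.

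The dura libraries held other ratios. Mgp was at 36.8 counts per 100 of Col1a1 in dura MHC II-high and at 23.5 in dura MHC II-low. Tcf21 was at 0.688 and 0.787, Inmt at 4.10 and 4.05, and Dpep1 at 1.89 and 2.15. Adh1 was at 3.32 in MHC II-high and 1.02 in MHC II-low, and Coch at 8.22 and 3.77. A Col1a1 count in choroid plexus was thus accompanied by many more counts of the transcription factor, the enzymes and cochlin than a Col1a1 count in dura, in choroid plexus 1 to 3 as in choroid plexus 4. These ratios use the contrast that chose the genes and are a description.

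**Figure D3:**
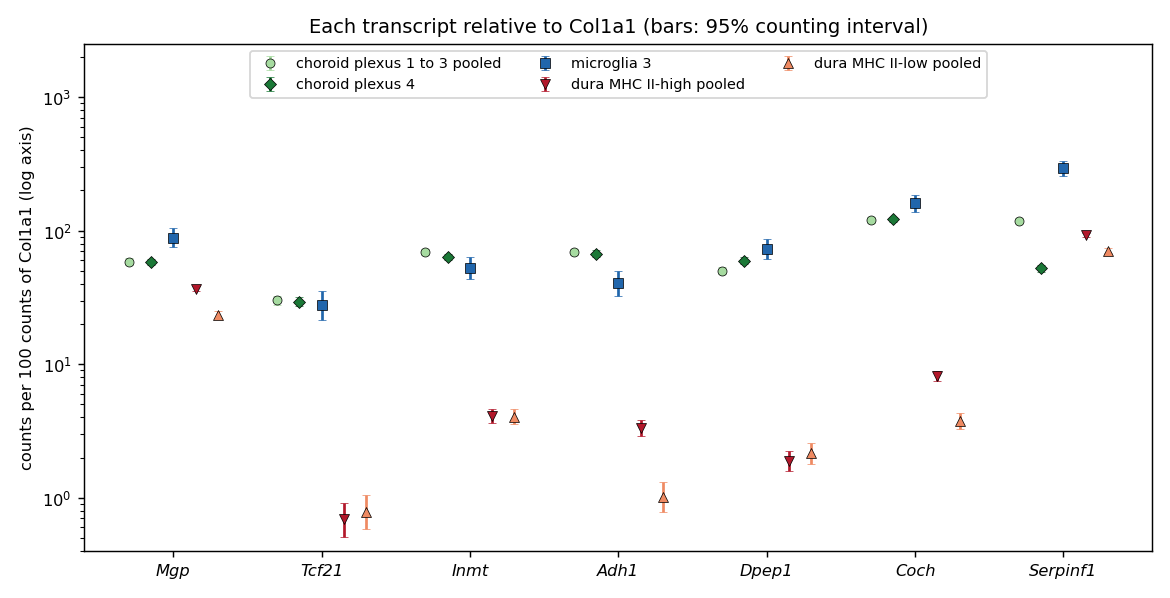
Counts of each transcript per 100 counts of Col1a1 (log axis) in choroid plexus 1 to 3 pooled, choroid plexus 4, microglia 3 and each dura population pooled, with bars for the 95% Clopper-Pearson counting interval. Choroid plexus 4 sits on choroid plexus 1 to 3 for Mgp, Tcf21, Adh1 and Coch (29.4 against 30.0 for Tcf21) and below it for Serpinf1 (52.2 against 119), and both dura populations lie far lower for Tcf21, Inmt, Adh1, Dpep1 and Coch.

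Microglia 3 was closer to choroid plexus than to dura in the ratios of Tcf21, Inmt, Adh1, Dpep1 and Coch. Per 100 counts of Col1a1 it held 27.7 of Tcf21, with an interval of 21.5 to 35.2 that includes the value of choroid plexus 1 to 3. It held 52.4 of Inmt and 40.5 of Adh1, with intervals below that of the choroid plexus pool, and 88.4 of Mgp, 72.7 of Dpep1, 160.4 of Coch and 293 of Serpinf1, with intervals above it. Relative to epithelium it differed from choroid plexus. Col1a1 stood at 25.5, 30.2 and 28.8 counts per 1000 of Ttr in choroid plexus 1 to 3, at 107 in choroid plexus 4 and at 1.97 in microglia 3. Ttr in microglia 3 was 374% of its level in choroid plexus 1 to 3 (pooled counts), and Col1a1 was 26.5%. The other 7 transcripts lay between 15.6% for Adh1 and 65.3% for Serpinf1. Col1a1 and Ttr therefore went opposite ways in choroid plexus 4 and were both higher in microglia 3 than in the other microglia libraries, at another ratio.

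**Figure D4:**
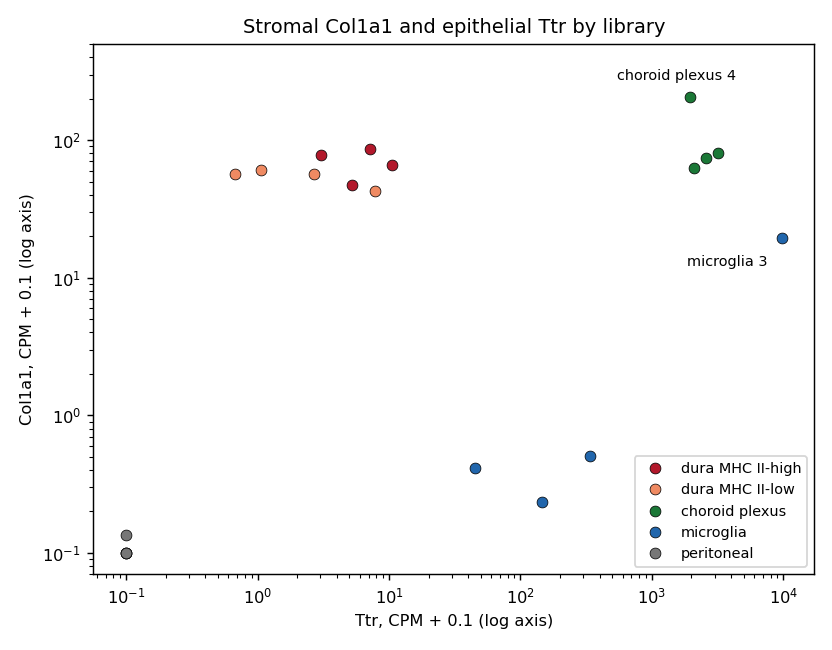
Col1a1 against Ttr, both as CPM + 0.1 on log axes, 1 point per library and 1 colour per population. Dura libraries have Col1a1 at 42.9 to 85.8 CPM with little Ttr, choroid plexus 4 lies above the other choroid plexus libraries in Col1a1 but not in Ttr, and microglia 3 has the highest Ttr, 9725 CPM, with Col1a1 at 19.2 CPM.

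The 4 comparisons below set no choroid plexus library against another group and were tested with edgeR's quasi-likelihood test. Dura levels did enter the choice of the genes, through the difference between choroid plexus and dura. The p-values of comparisons that use dura are therefore not free of that choice. The filter and the estimate of spread came from all 20 libraries, choroid plexus included. Genes were called at a Benjamini-Hochberg adjusted p under 0.05 and a change of at least 2-fold. The first asks whether the dura populations differ in stromal transcripts. None of the 8 genes was called between dura MHC II-high and dura MHC II-low, where 3.88% of all genes were; 1 of the 8 had an unadjusted p under 0.05, and DESeq2, which gave no adjusted p for Col1a1, called 0 as well. That gene was Serpinf1, higher in MHC II-high by 0.76 ± 0.17 (log2, SE; edgeR adjusted p = 0.00684), short of 2-fold. The groups overlapped, while MHC II-high was above MHC II-low in 4 of 4 same-numbered pairs. In a fit of the dura libraries alone with the replicate number as a block the difference was 0.74 ± 0.10 (edgeR adjusted p = 0.000232). The labels do not state this pairing, which is an assumption, and the blocked fit was chosen after seeing the data. Adh1 had the largest difference, 1.98 ± 0.98 (edgeR adjusted p = 0.239), with 227 counts in the 4 MHC II-high libraries and 62 in the 4 MHC II-low libraries. Col1a1 differed by 0.35 ± 0.75 and Mgp by 0.99 ± 0.66, with neither past the threshold. In the blocked fit Col1a1 differed by 0.32 ± 0.13 (edgeR adjusted p = 0.113), and Mgp by 0.83 ± 0.24 (edgeR adjusted p = 0.026), higher in 3 of 4 pairs and short of 2-fold. Tcf21 did not pass the filter in that fit.

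Among the stromal lists between the dura populations, 1 of 28 matrix genes was called, Col14a1, higher in MHC II-high by 1.78 ± 0.38 (edgeR adjusted p = 0.00508). Of the leptomeningeal list 2 of 12 genes were called higher, Slc47a1 and Vtn. None of the 20 mesenchymal genes and none of the 13 collagen-processing genes was called. Beside them 1 of 11 mural genes, Rgs5, and 4 of 12 endothelial genes were called higher in MHC II-high, with a summed endothelial level of 20.5 to 60.9 CPM against 6.203 to 11.4 CPM in MHC II-low, and their part in the difference of Serpinf1 was not tested.

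Against microglia, dura MHC II-high was called higher for 2 of the 8 genes, where 15.7% of all genes were called higher and 27.9% in either direction. Col1a1 was higher by 3.78 ± 0.88 (log2, SE; edgeR adjusted p = 0.0018) and Mgp by 1.98 ± 0.69 (edgeR adjusted p = 0.0235). The call of Mgp was lost without dura MHC II-high 4 (edgeR adjusted p = 0.0763), without microglia 4 (0.0603), without microglia 5 (0.0695) and with only these populations in the fit (0.138). Without microglia 3, 5 of 8 genes were called higher and none lower (27.95% of genes called in either direction). Col1a1 was then higher by 7.81 ± 0.57 (edgeR adjusted p = 3.17e-09). Inmt was higher by 6.69 ± 1.20, Dpep1 by 5.57 ± 1.67 and Coch by 4.48 ± 1.21. Dpep1 and Coch had been lower with microglia 3 included, by -1.44 ± 1.30 and -0.54 ± 1.20, with neither called. Tcf21 (edgeR adjusted p = 0.159), Adh1 (0.838) and Serpinf1 (0.617) were not called with or without that library.

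Dura MHC II-low was called higher than microglia for Col1a1, by 3.43 ± 0.87 (log2, SE; edgeR adjusted p = 0.0037), and lower for Adh1, by -2.77 ± 0.98 (edgeR adjusted p = 0.0308), where 26.5% of genes were called. With only these populations in the fit the call of Col1a1 was lost (log2 3.42, edgeR adjusted p = 0.0696). The call of Adh1 was lost without dura MHC II-low 2 (edgeR adjusted p = 0.071), 3 (0.0726) or 4 (0.0685), and without microglia 3 (0.0909). Without microglia 3, 4 genes were called (25.69% of all genes were), all higher in dura: Col1a1, Mgp, Inmt and Dpep1, at 7.45 ± 0.57, 2.05 ± 0.65, 6.32 ± 1.24 and 5.44 ± 1.69. Serpinf1 was lower in dura MHC II-low than in microglia by -0.75 ± 0.17 (edgeR adjusted p = 0.0013), short of 2-fold, and by -0.88 ± 0.18 without microglia 3. Its dura MHC II-low and microglia ranges, 30.1 to 48.2 and 56.3 to 70.8 CPM, did not overlap, as for 21.5% of all genes in that direction.

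Other lists were called in these contrasts too. Against microglia, 13 of 28 matrix genes were called higher in dura MHC II-high and 0 lower, and without microglia 3 these became 20 and 1. In dura MHC II-low 10 were called higher and 2 lower, and without microglia 3 the counts were 17 and 2. Of the 20 tested mesenchymal genes, 6 were called higher and 3 lower in dura MHC II-high, and 9 and 2 without microglia 3. The median log2 difference of the matrix list in dura MHC II-high was 2.08, and 3.70 without microglia 3, against 0.02 and 0.03 over all genes tested. Of the leptomeningeal list, 6 of 12 genes were called higher in each dura population, with 1 lower in MHC II-high and 3 in MHC II-low. Without microglia 3, 7 were called higher and 0 lower in MHC II-high, and 6 higher and 1 lower in MHC II-low. Of other cell types, 6 and 11 of 12 endothelial genes were called lower in MHC II-high and MHC II-low. So were 3 and 8 of 11 mural genes, and 13 and 14 of 15 epithelial genes. Without microglia 3 these were 6 and 12, 2 and 7, and 10 and 11, with 1 epithelial gene called higher in each. Of 4 tested genes of other blood cells, 3 and 1 were called higher and 0 lower (1 and 0 of 6 without microglia 3). Of 11 genes of neurons and glia, 1 and 0 were called lower, with or without microglia 3. Of 4 tested mesothelial genes, 1 was called higher and 3 lower in each (1 and 2 lower without microglia 3). The part of these lists in the differences of the 8 genes was not tested.

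Peritoneal macrophages held 1 count of Col1a1 and 1 of Mgp, both in replicate 1, and 0 counts of the other 6 genes in all 4 libraries. All 8 genes were called lower than in microglia, where 25.7% of genes were called lower, but 4 were without microglia 3, when 43.08% of genes were called in either direction: Col1a1, Mgp, Adh1 and Serpinf1. With only these populations in the fit 2 were called. Serpinf1 was at least 2332-fold lower in pooled peritoneal counts than in pooled microglia counts, taking 3 counts over the group as the limit that a count of 0 allows, and at least 2430-fold lower without microglia 3. Adh1 was at least 139.8-fold lower, and at least 92.2-fold lower without microglia 3 (edgeR adjusted p = 0.00265). Without that library, Tcf21, Inmt and Dpep1 had 2, 1 and 1 counts in the 3 remaining microglia libraries, so both populations were at or under the limit.

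The contrasts of choroid plexus with the other populations describe the choice of the genes and carry no test. Choroid plexus exceeded dura MHC II-high by 6.15 ± 1.47 (log2, SE) for Tcf21, 5.50 ± 1.41 for Dpep1, 5.02 ± 0.94 for Adh1, 4.65 ± 1.15 for Inmt and 4.56 ± 1.30 for Coch. The differences were 1.28 ± 0.66 for Mgp, 0.63 ± 0.76 for Col1a1 and 0.51 ± 0.17 for Serpinf1. Past the thresholds were 5 of 8 genes against dura MHC II-high, where 9.88% of all genes were, 7 of 8 against dura MHC II-low (12.8%) and 7 of 8 against microglia (19.2%). These thresholds include an adjusted p that the choice of the genes makes void here, so nothing is read from these counts. Coch fell short against dura MHC II-high without dura MHC II-high 3, dura MHC II-high 4 or choroid plexus 4, and Mgp against dura MHC II-low without dura MHC II-low 1 or choroid plexus 4. Against microglia 4 were past the thresholds without choroid plexus 4. These comparisons share the choroid plexus libraries. All 15 epithelial markers were also at least 2-fold higher in choroid plexus 1 to 3 than in both dura populations. So were 5 of the 8 genes and 1352 of all 13960 genes tested. The same held for 8 of 12 endothelial genes (0 the other way) and 8 of 20 mesenchymal genes (3 the other way). The part of these lists in the differences was not tested.

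Of the 12 other genes most like Col1a1 across all 20 libraries, 6 are in the stromal matrix list and 1, Gjb2, in the leptomeningeal list. Likeness is Pearson's r of log2(CPM + 0.5) with Col1a1 and is a description, since libraries of a population share their cells. Mfap4, a microfibril-associated protein, was closest with r = 0.99 (n = 20 libraries). It stood at 41.3 CPM in choroid plexus 4, 10.3 to 19.98 CPM in choroid plexus 1 to 3 and 7.86 to 20.02 CPM in dura MHC II-high, and at 0 counts in all microglia libraries but microglia 3, with 3.33 CPM. Then came Col6a1, a chain of type VI collagen, Prrx2, a homeobox factor of mesenchyme, Cdh11, a cadherin of mesenchymal cells, Dcn, Ogn, Col1a2, Gsn, Cpxm1, Igfbp5, Gjb2 and Spats2l, with r from 0.97 to 0.99. Spats2l matched over populations but not within choroid plexus, at 35.7 CPM in choroid plexus 4 and 30.3 to 39.9 CPM in choroid plexus 1 to 3.

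The other 7 transcripts were less like Col1a1 than these 12 genes. Mgp had r = 0.92 and rank 76 among the genes tested. Inmt had 0.79, Coch 0.75, Serpinf1 0.70, Dpep1 0.69, Tcf21 0.57 and Adh1 0.52. Once each library was taken as a deviation from its population mean, the order changed: Inmt had r = 0.95, Dpep1 0.93, Coch 0.86, Tcf21 0.82, Mgp 0.70, Adh1 0.52 and Serpinf1 0.02. Inmt, Dpep1, Coch and Tcf21 were thus more like Col1a1 by deviations than over all libraries, Mgp and Serpinf1 were less like it, and Adh1 had the same r by both. By deviations r gives much weight to microglia 3, with Col1a1 at 19.2 CPM against 0.132 to 0.405 CPM in the other microglia libraries. Inmt, Dpep1, Coch and Tcf21 also stood apart in microglia 3. Their r by deviations without microglia 3 is not given here.

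By deviations the 12 closest genes included Pcolce, which enhances the cleavage of the procollagen C-propeptide, with r = 0.97, and Cygb, Steap4, Dcn, Emcn, Serpinh1, Loxl1, Il33, Pdpn, Wdr63 and Ackr4. Dcn was the only gene in both sets of 12. Pcolce stood at 83.7 CPM in choroid plexus 4 against 29.7 to 41.9 CPM, and at 80.3 CPM in microglia 3 against 0.859 to 3.07 CPM. Wdr63, a dynein-associated gene of motile cilia, was at 1.27 CPM in choroid plexus 4, within the 0.857 to 1.48 CPM of replicates 1 to 3, and at 7.28 CPM in microglia 3 against 0.0661 to 0.347 CPM. Without microglia 3, 3 of these 12 genes remained among the closest, and 6 of the 12 over all libraries did. Without choroid plexus 4, 3 of the 12 by deviations remained.

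Among genes at 5 CPM or more in choroid plexus 4, those with the largest excess over the highest of replicates 1 to 3 were led by guanylate-binding proteins. Gbp2b, an interferon-inducible guanylate-binding protein, led with 20.4 CPM against 0.923 to 1.33 CPM, a log2 ratio of 3.51 on the CPM + 0.5 scale. Its relatives Gbp4, Gbp8 and Gbp2 followed, the last at 185 CPM against 41.5 to 45.1 CPM. Next were Plac8, Serpina3f and Il12rb1. The other 5 of the 12 were Htra1, Pcdh18, Col5a1, Lox and Aoc3, of which Col5a1 (a collagen chain) and Lox (the enzyme that crosslinks collagen) are matrix genes. Over the 20 libraries r with Col1a1 was -0.34 for Gbp2b, which was at 0 counts in microglia 3 and at 250.2 to 1214 CPM in peritoneal macrophages. It was 0.53 for Gbp4, 0.63 for Gbp8, 0.21 for Gbp2, -0.13 for Plac8, 0.75 for Serpina3f and 0.88 for Il12rb1. By deviations from the population means r was 0.24 for Gbp2b, -0.08 for Gbp4, -0.01 for Gbp8 and 0.07 for Gbp2. For Plac8, Serpina3f and Il12rb1 it was -0.10, 0.20 and 0.41. Choroid plexus 4 therefore differed from replicates 1 to 3 in at least these sets of genes, and whether they are linked was not tested.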

How the data were processed

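The authors deposited a table of whole-number counts per gene for each of the 20 libraries. The submitters' processing notes name FastQC 0.11.4, Trimmomatic 0.38, TopHat2 2.1.0, SAMtools 0.1.18 and the mm10 build; counting program, annotation and strand setting: not given in the sources used here. Lines for reads given to no gene (no feature, 5.67% to 13.1% of reads; ambiguous, 0.836% to 1.51%) were left out.

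Counts were scaled by TMM, filtered with filterByExpr (13960 genes) and fitted over all 20 libraries, 1 coefficient per population, with edgeR 4.0.16 in R 4.3.3 (robust quasi-likelihood F test, 15 residual degrees of freedom, Benjamini-Hochberg over all genes). The script was tested on simulated data. CPM use the TMM-scaled library size; log ratios use a pseudocount of 0.5 where stated. Exon lengths come from GENCODE M21, which holds 23376 of the 24421 symbols. Alternatives were DESeq2 1.42.0, median-of-ratios scaling, no filter, a fit that is not robust, only the 2 populations compared, the replicate number as a block, each library left out, thinning to equal depth and Spearman's rho. The 4 same-numbered pairs of dura MHC II-high and MHC II-low had correlations of deviations of 0.13 to 0.25 over 1000 genes. The numbers were taken to pair the dura libraries, from the data and not from the labels. Pairs with different numbers were not compared, so this pairing is an assumption. The fit of the dura libraries alone with that block, list counts without a pseudocount and leaving out microglia 3 for gene lists and likeness were chosen after seeing the data.

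The members and gene lists were chosen with earlier results of these data known. Text names the 8 members, the 12 other genes most like Col1a1 by each measure, the 12 with the largest excess in choroid plexus 4 at 5 CPM or more, and up to 4 abundant genes of a list; unnamed clones, predicted and mitochondrial genes were passed over, and 1 gene that the rule selects is not reported here. Genes named beside counts of 5 or fewer, among them Kdr, Esam, Podxl, Des, Acta2 and Fbln2, were named after their values were seen.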

Additional observations from a re-analysis of the deposited data

Results flagged for a closer look

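In each population of 4, a library was looked at again when its gap to the nearest other library as a share of the whole range exceeded Dixon's 95% critical value for 4 values. Of 32 groups with values, 7 met this; chance puts about 1 group in 20 past it, and the 8 genes move together, so the 7 are not independent. The genes were chosen partly from choroid plexus 4, so its value here follows from that choice. Col1a1 in choroid plexus 4 was at 207 CPM, with the other choroid plexus libraries at 62.7 to 81.1 CPM. The other transcripts in choroid plexus 4 were the highest of their population without passing this value.

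Microglia 3 stood apart for 5 transcripts. Col1a1 was at 19.2 CPM there, with 0.132 to 0.405 CPM in the other microglia libraries. Tcf21 was at 5.31 CPM, with 0 to 0.125 CPM in the others. Inmt was at 10.1 CPM against 0 to 0.0627 CPM. Dpep1 was at 14.0 CPM against 0 to 0.0579 CPM, and Coch at 30.8 CPM against 0 to 0.439 CPM. The same library had 9725 CPM of Ttr.

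Tcf21 in dura MHC II-low 3 was at 1.09 CPM, from 29 counts, with 0.161 to 0.303 CPM in the other dura MHC II-low libraries.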

How the results depend on the processing

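Choroid plexus values rest on 13383274 to 16052955 counts per library, and 1 library carries the excess of stromal transcripts, so that excess has no replicate check. Levels of Tcf21, Adh1, Dpep1 and Inmt in single dura and microglia libraries rest on few counts or none. The number of genes called against microglia depends on microglia 3. Of 2272 values recomputed under an alternative, 2215 kept their side of the threshold or stayed near the reported value. A gene called in neither fit counted among these even where its direction changed. With single libraries left out, Tcf21 in dura MHC II-high against microglia ran from -2.76 to 3.19 and was never called.

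Members called in dura MHC II-high against microglia numbered 2, with 1 under DESeq2, 1 with only the 2 populations, and 1 to 5 with single libraries left out. In dura MHC II-low against microglia they numbered 2, with 1 under DESeq2, 1 with only the 2 populations and 1 to 4 with single libraries left out. DESeq2 gave no adjusted p for Col1a1 in any comparison, so its counts leave that gene out. In peritoneal macrophages against microglia 8 were called, 2 with only the 2 populations, and 4 to 8 with single libraries left out. In choroid plexus against microglia 7 were past the thresholds, and 4 to 7 with single libraries left out. With single libraries left out, the log2 difference in dura MHC II-high against microglia ran from -1.89 (without microglia 5) to 5.57 (without microglia 3) for Dpep1 and from -0.99 to 4.48 for Coch, and in dura MHC II-low against microglia from -0.67 to 6.32 for Inmt and from -2.02 to 5.44 for Dpep1, with the same libraries at the ends.

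The log2 ratio of Serpinf1 in choroid plexus 4 was 0.33 and became 0.42 for CPM without TMM. Of the 12 genes most like Col1a1, 2 were shared with the list by Spearman's rho, 2 with the list over choroid plexus and dura libraries, and 6 to 12 with single libraries left out (6 without microglia 3). By deviations the shared genes numbered 5 by Spearman's rho, 1 over choroid plexus and dura libraries, and 3 without choroid plexus 4 or without microglia 3. The cause of these changes was not tested.

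The replicate numbers were taken to pair the dura populations only. Over all 36 same-numbered pairs the correlation of deviations ran from -0.36 to 0.25, with 13 over 0.1. Peritoneal macrophages reached 0.24 with dura MHC II-low and 0.22 with dura MHC II-high, above the lowest dura pair at 0.13. Pairs with different numbers were not compared, so these correlations do not settle which populations are paired. In the dura comparison the replicate block changed no call of a member, with 519 genes called over all 20 libraries and 593 in the dura libraries alone, against 541 without it. In the other comparisons the number of members called changed by 1 at most, and Coch in choroid plexus against microglia was the only member whose call was lost (log2 4.31, edgeR adjusted p = 0.0647).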
